A study of Sus scrofa with 34 samples.

Results

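The genes described here are 10 listed symbols of lipoprotein assembly and transport: the apolipoproteins APOA1, APOA4, APOA5, APOB, APOC3, APOE, APOH and APOM, the lipid transfer protein MTTP and the plasma enzyme LCAT. They were taken from the liver and ileum count tables by their pig Ensembl symbol, not by any measured value. Of 25880 genes counted, 14857 had a symbol, and 9 of the 10 listed symbols were among them. APOA5 had no Ensembl gene to match and has no value here. LCAT had an entry but not a single count, so 8 members were tested in the liver and 7 in the ileum.

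Triglyceride leaves the enterocyte in chylomicrons and the hepatocyte in very low density lipoprotein, and both particles are built around 1 molecule of APOB. MTTP loads lipid onto APOB in the endoplasmic reticulum. The smaller apolipoproteins then decide where the particle goes: APOC3 slows its clearance, APOE is bound by hepatic receptors, and APOA1 forms high density lipoprotein, on which LCAT esterifies cholesterol and APOM carries sphingosine 1-phosphate. The liver makes most of them, and the small intestine also makes APOA1, APOA4 and APOB.

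Weaned crossbred piglets received 1 of 4 diets and were sampled on day 28. The Control group ate a basal diet, and the PFA group ate it with a phytogenic feed additive, a blend of plant essential oils and related compounds. The OO group ate a diet holding heat-oxidized rapeseed oil, and the OO + PFA group, named PFA_OO in the labels, ate that diet with the additive. The oxidized oil was added without a matching amount of fresh oil in the basal diet, so oil amount and oil oxidation cannot be told apart. All pigs of a diet shared 1 pen, and an effect of the pen cannot be told apart from that of its diet. The study asked how the oil challenge and the additive change gene expression in gut and liver. There were 34 poly(A) RNA libraries: 6 livers for each of the 4 diets, and 5 ilea each for Control and PFA, from 10 of the same pigs. Animals are named by diet code and number (C-71, P-67, OO-74, OP-79).

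Libraries held 18738055 to 42446834 counts on genes, and the members took 1.96% to 4.40% of them in the livers tested and 0.433% to 0.984% in the ilea. The study left out 1 OO + PFA liver on a suspicion of degraded RNA without naming it. OP-77, the library with the lowest mapping rate in the study's supplement, was taken to be that liver and is out of every main test here, so OO + PFA had 5 livers. For each 100 counts on genes it had 36.6 reads with several alignments, beside 3.02 to 14.7 in the other livers. Libraries also differed in how strongly their counts leaned toward GC-rich genes. Because APOE, APOA1, APOA4 and APOC3 are GC-rich and APOB, APOH and MTTP are not, that lean is given beside member results it touches. The labelled tissues matched their markers. Summed over 11 hepatocyte marker genes, livers had 103342 to 234276 CPM (library-scaled counts) and ilea 726 to 1815, and over 9 enterocyte markers ilea had 19389 to 29248 and livers 426 to 788. In such bulk tissue, fewer cells of a type and less RNA per cell cannot be told apart.

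APOA4, APOC3 and APOA1 lie side by side on chromosome 9 of Sscrofa11.1. APOA4 (ENSSSCG00000040689, chr9:44201587-44204072) and APOA1 (ENSSSCG00000030921, chr9:44216481-44218360) are on the minus strand, and APOC3 (ENSSSCG00000015069, chr9:44211171-44213538) lies between them on the plus strand. The 250 bases before the RefSeq start of each are printed 5′ to 3′ on the gene's own strand, because 1 of the windows holds a nuclear receptor motif. Capitals mark that motif.
APOA4, chr9:44204073-44204322, minus strand: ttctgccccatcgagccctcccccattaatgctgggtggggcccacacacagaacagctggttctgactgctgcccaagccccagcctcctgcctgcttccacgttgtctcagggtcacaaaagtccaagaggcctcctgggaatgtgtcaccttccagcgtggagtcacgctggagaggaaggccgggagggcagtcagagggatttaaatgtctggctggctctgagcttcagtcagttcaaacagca
APOC3, chr9:44210921-44211170, plus strand: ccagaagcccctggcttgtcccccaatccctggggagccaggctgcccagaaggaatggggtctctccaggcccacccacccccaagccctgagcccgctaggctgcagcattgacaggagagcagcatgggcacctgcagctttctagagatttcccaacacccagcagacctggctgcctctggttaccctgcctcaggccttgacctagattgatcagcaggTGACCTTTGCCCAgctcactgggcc
APOA1, chr9:44218361-44218610, minus strand: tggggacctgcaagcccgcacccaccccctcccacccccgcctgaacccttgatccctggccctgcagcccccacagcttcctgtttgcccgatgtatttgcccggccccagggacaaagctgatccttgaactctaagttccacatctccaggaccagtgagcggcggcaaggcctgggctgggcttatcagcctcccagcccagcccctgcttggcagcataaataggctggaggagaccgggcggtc
The motif sought was a direct repeat spaced by 1 base, AGGTCANAGGTCA, the kind of element that PPAR-alpha and HNF4A are known to bind, on either strand with at most 2 mismatches in its 12 fixed bases. Of 20591 upstream windows of this length, 564 (2.7%) held it. Among the 10 members, APOC3 alone had a match, on the minus strand from 25 to 13 bases before its start with 2 mismatches. The single half-site AGGTCA was in 12.3% of all windows and in those of APOA5, APOC3 and MTTP. A match describes the letters only.

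The other members are spread over the genome. APOB (ENSSSCG00000008595) is at chr3:117250096-117316200, APOE (ENSSSCG00000003088) at chr6:51373113-51375333 and APOH (ENSSSCG00000040910) at chr12:12827195-12839172. APOM (ENSSSCG00000001411) is at chr7:23768974-23773324, MTTP (ENSSSCG00000009179) at chr8:120820660-120871468 and LCAT (ENSSSCG00000028350) at chr6:28550356-28553561. The GC content of their exons ran from 43.2% in MTTP, 44.4% in APOH and 44.8% in APOB through 47.6% in APOM to 59.4% in APOC3, 61.3% in APOA4, 64.4% in APOA1 and 68.5% in APOE. RefSeq places the uncharacterized gene LOC106504887 across APOA4 on the opposite strand, and whether the counting used strand is not given, so their reads cannot be told apart with certainty.

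Per kilobase of exon, the Control liver had 4 members at a high and similar level. APOC3 had 6284 ± 2583 CPM per kb (SD, n = 6), APOE 4526 ± 1490, APOH, the phospholipid-binding beta-2-glycoprotein I, 4000 ± 723, and APOA1 3544 ± 589. APOC3 was above APOE in all 6 pigs, but APOE was above APOH in 3 of 6 and APOH above APOA1 in 4 of 6, so the order of these 3 was not settled between pigs. APOB followed at 277 ± 53.9, below APOA1 in all 6 pigs. APOM (70.8 ± 16.9) and MTTP (61.5 ± 9.17) were level with each other, each above the other in 3 pigs. APOA4 was the lowest detected member at 11.2 ± 10.8 CPM per kb, below MTTP in 6 of 6.

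LCAT was listed at 0 in all 24 livers and all 10 ilea. A count of 0 allows up to 3 counts, which is 0.160 CPM in the smallest liver and 0.160 CPM in the smallest ileum library. Since LCAT is a well-known product of the liver, these values say only that no read was assigned to its gene entry. In RefSeq the neighbouring gene SLC12A4 lies 601 bases from LCAT on the same strand.

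Across the 4 diets, APOA4 was the single member that passed the test in the liver (edgeR quasi-likelihood F-test, adjusted p = 0.00890). APOH (adjusted p = 0.0599) and APOE (adjusted p = 0.0859) came next, and the other 5 had adjusted p of 0.317 to 0.539. Of the 8 members 1 was called, beside 3.66% of all 13831 genes tested, and 3 of 8 were under 0.05 before adjustment beside 25.2% of all genes. DESeq2 called 2 members, APOE (adjusted p = 0.0172) and APOH (0.00113), beside 12.8% of all genes, and gave no adjusted p for APOA4.

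**Figure D1:**
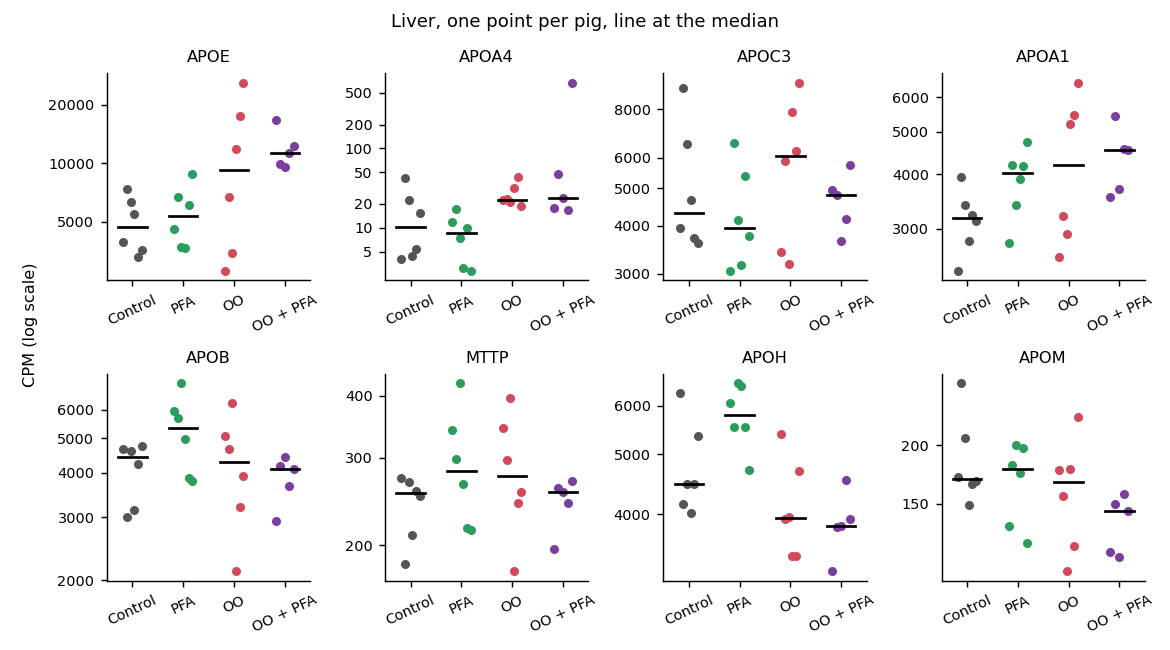
Level of each tested member in every fitted liver, in CPM on a log axis, one point per pig and a line at the median of each diet (6, 6, 6 and 5 pigs). The OO + PFA pig OP-137 stands at 675 CPM of APOA4 with every other liver at or below 47.6, and APOE in all 5 OO + PFA livers lies above every Control liver.

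APOA4, a triglyceride-responsive apolipoprotein of chylomicrons and high density lipoprotein, was low and variable in the liver. The 6 Control livers had a lowest of 3.99, a median of 10.3 and a highest of 42.4 CPM, and the PFA livers 2.86, 8.67 and 17.4. The OO livers ran from 19.0 through a median of 22.4 to 43.5. In OO + PFA, OP-79 had 17.5 CPM, OP-98 47.6, OP-105 23.5, OP-126 16.7 and OP-137 675. Every OO and OO + PFA liver was above 4 of the 6 Control livers, and the other 2, C-80 and C-85, overlapped them. OP-137, with 16641 counts of APOA4, was apart from all other livers.

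The fitted APOA4 difference was a log2 fold change of 3.32 ± 0.85 (SE) for OO + PFA against Control (edgeR, adjusted p = 0.0304) and 4.16 ± 0.89 against PFA (0.0162). It was 0.77 ± 0.78 for OO against Control (0.596) and −0.83 ± 0.78 for PFA against Control (0.715). Both calls rested on OP-137. Without that liver the difference was 0.76 against Control (adjusted p = 0.481), 1.59 against PFA (0.182) and −0.02 against OO, and the test across diets gave 0.169. The call against Control was also lost on leaving out C-71, C-85, C-100 or C-110 (adjusted p 0.0532 to 0.0730) and when the 2 diets were fitted alone (0.0545).

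Library titles came in 2 forms, PigLiv and PL, and APOA4 differed between them in Control pigs. Among PigLiv livers, APOA4 was 3.99 to 15.3 CPM in 4 Control pigs, 22.0 to 43.5 in 3 OO pigs and 16.7 to 47.6 in 4 OO + PFA pigs. Within that form the groups on oxidized oil did not overlap Control, as in 1.82% of all genes in this direction. Among PL livers, 2 Control pigs had 22.0 and 42.4 CPM and 3 OO pigs 19.0 to 22.8, so there the order did not hold. OP-137 was the single OO + PFA liver of the PL form. Other members also differed by form in Control. APOC3 had 6494 and 9069 CPM in the PL Controls and 3608 to 4662 in the PigLiv ones. APOE had 6273 and 7334 against 3268 to 5453, APOM 207 and 272 against 149 to 171, and APOA1 3409 and 3950 against 2406 to 3235. For APOB, APOH and MTTP the forms overlapped. The share of all genes with such a split was not tested. What the form of the title stands for is not given.

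In OP-137, APOA4 stood out further than any other gene. Ranked by the log2 gap to the next OO + PFA liver, it was first of 13831 genes with a gap of 3.82. Gaps of over 2-fold were found in 83 genes, and 14 genes were 2-fold above every other liver. The citrate carrier SLC13A5 had 64.2 CPM in this liver against 20.5 in the highest other one. Of the markers of enterocytes, which make APOA4, FABP2 had 1 count in OP-137, and SI and KRT20 had none. ANPEP (233 CPM) and DPP4 (262) are high in every liver, and without them the sum over 7 markers was 11.6 CPM in OP-137 and 4.64 to 33.8 in the other 22 livers.

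The gene whose liver pattern was most like that of APOA4 was ZPR1, which lies in the same cluster (r = 0.92 over 23 livers, 0.87 without OP-137), followed by SIAH2 (0.81) and the lipase LIPN (0.80). ZPR1 had 114 to 217 CPM in Control, 90.8 to 185 in PFA and 166 to 294 in OO. In OO + PFA it had 222, 234, 249 and 337 CPM, and 649 in OP-137, again the highest of all livers. In RefSeq, ZPR1 (chr9:44167422-44178137) and APOA5 (chr9:44177834-44180880) share 304 bases on the same strand. APOA5, an activator of lipoprotein lipase, had no entry of its own, so whether reads from it were counted under ZPR1 was not tested.

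APOE, the ligand of hepatic remnant receptors, was higher on both oxidized oil diets by fold but missed the threshold. Control livers ranged from 3268 through a median of 4693 to 7334 CPM and PFA livers from 3663 through 5343 to 8826. The OO livers split: OO-74 had 2786, OO-97 3429 and OO-88 6713 CPM, while OO-99 had 11837, OO-102 17582 and OO-130 26027. OO + PFA livers had 16642 (OP-79), 9961 (OP-98), 9560.02 (OP-105), 11289 (OP-126) and 12195.5 (OP-137). All 5 OO + PFA livers were above every Control and every PFA liver, whereas among the 6 OO livers OO-97 and OO-88 lay within the Control range and OO-74 below it. A gap of this kind, higher in OO + PFA, was found in 7.13% of genes against Control and 4.69% against PFA.

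For APOE the log2 fold change was 1.20 ± 0.40 in OO (edgeR, adjusted p = 0.0958), 1.26 ± 0.42 in OO + PFA (0.0744) and 0.17 ± 0.40 in PFA (0.898), each against Control. Against PFA, OO + PFA differed by 1.09 ± 0.42 (0.1369), and against OO by 0.07 ± 0.42, with a 95% interval of −0.75 to 0.89. The last turned to −0.22 with GC corrected. DESeq2 passed the threshold for OO (1.17, adjusted p = 0.0379) and for OO + PFA (1.23, 0.0314) against Control. In edgeR, OO against Control passed once OO-74 or OO-97, the low OO livers, was left out (adjusted p = 0.0308 and 0.0293). OO + PFA against Control passed when the 2 diets were fitted alone (1.27, adjusted p = 0.00367), and so did OO + PFA against PFA (1.06, 0.0290). With OP-77, the library of suspected degraded RNA, in the fit they were 1.73 (0.0199) and 1.56 (0.0436).

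The level of APOE followed the GC lean of the library. For each library the slope of its log2 CPM deviation on gene GC content was measured per 10 percentage points. Slopes ran from −0.205 to 0.0824 in Control, −0.474 to 0.0668 in PFA, −0.378 to 0.418 in OO and 0.0406 to 0.487 in OO + PFA. The 3 OO livers high in APOE had slopes of 0.297 to 0.418 and the 3 low ones −0.378 to −0.151. Over 23 livers the correlation of log2 APOE with the slope was r = 0.93 (Spearman 0.93). The permutation p was 1e-05 for both, the smallest that 100000 permutations can give, and 4e-05 adjusted over 16 p-values. The coefficient was 0.94 without the 2 most extreme slopes, 0.96 within PigLiv and 0.92 within PL. The 3 genes most like APOE were NFKBIB, MRPL12 and HRAS, each at r = 0.98. Once GC was corrected, the log2 fold change was 0.33 in OO (adjusted p = 0.189) and 0.11 in OO + PFA (0.752) against Control. What sets the slope, sample or diet, was not tested.

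**Figure D2:**
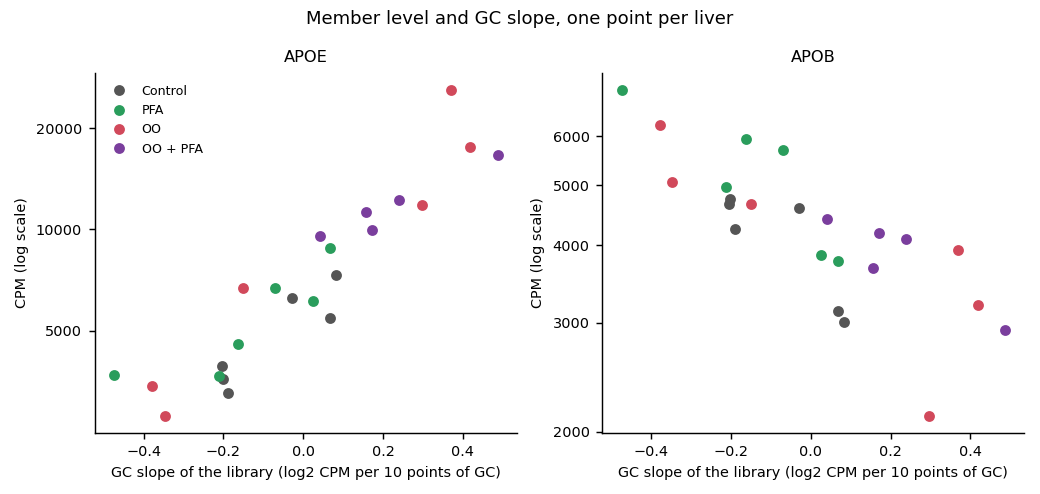
APOE (left) and APOB (right) in CPM on a log axis against the GC slope of the library (log2 CPM per 10 percentage points of GC), one point per fitted liver coloured by diet. APOE climbs with the slope (r = 0.93) and APOB falls with it (r = −0.79), and the 3 OO livers with slopes of 0.297 to 0.418 are those with 11837 to 26027 CPM of APOE.

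Other members leaned the same way as their base composition. APOA1 (r = 0.71) and APOC3 (0.61) rose with the slope, and APOB (−0.79), MTTP (−0.72) and APOH (−0.68) fell with it, each with a permutation adjusted p of 4e-05 to 0.00249. Spearman coefficients were 0.72, 0.66, −0.85, −0.71 and −0.68 in the same order, and without the 2 most extreme slopes r was 0.84, 0.68, −0.73, −0.62 and −0.56. Within the PL form APOH gave −0.31 against −0.87 within PigLiv. APOA4 gave r = 0.41 (adjusted p = 0.0593) and rho = 0.48 (0.0267), and APOM −0.11 (0.625). Where the correction for GC turned the direction of a fold change given here, the corrected value stands beside it.

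APOH had its lowest mean on the combined diet, 3872 CPM, close to the 4135 CPM of OO. OO + PFA livers had 3235 (OP-79), 3813 (OP-98), 3831 (OP-105), 4551 (OP-126) and 3929.6 CPM (OP-137). PFA livers had 4716 at the lowest, 5799 at the median and 6527 at the highest, so these groups did not overlap, as in 1.8% of all genes in this direction. Control livers ran from 4017 through 4472 to 6287 and OO livers from 3416 through 3941 to 5399, and both overlapped the other diets. OO + PFA was lower than PFA by a log2 fold change of −0.58 ± 0.15, just above the threshold in edgeR (adjusted p = 0.0506) and past it in DESeq2 (−0.61, 0.00170). With the 2 diets alone it passed in edgeR too (0.0351), as it did with OP-77, the library of suspected degraded RNA, in the fit (0.0374). Corrected for GC it was −0.43 (0.0701). Against Control the values were −0.31 ± 0.15 in OO + PFA (0.232), −0.21 ± 0.14 in OO (0.409) and 0.28 ± 0.14 in PFA (0.477). OO + PFA differed from OO by −0.09 ± 0.15 (edgeR, adjusted p = 0.879).

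APOA1, the core protein of high density lipoprotein, had 3158 ± 525 CPM in Control, 3867 ± 683 in PFA, 4306 ± 1607 in OO and 4353 ± 758 in OO + PFA. Control livers ranged from 2406 to 3950 CPM, and 3 livers in each of the other diets lay above that range. Its log2 fold change was 0.45 ± 0.20 in OO (edgeR, adjusted p = 0.207), 0.46 ± 0.21 in OO + PFA (0.198) and 0.29 ± 0.20 in PFA (0.602) against Control. With GC corrected, OO + PFA turned to −0.24 (0.452) and OO to 0.05.

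APOC3, the inhibitor of particle clearance encoded next to APOA1, overlapped between all diets. It had 5247 ± 2157 CPM in Control, 4335 ± 1365 in PFA, 5997 ± 2435 in OO and 4658 ± 798 in OO + PFA. The log2 fold changes against Control were 0.19 ± 0.27 in OO (edgeR, adjusted p = 0.722), −0.28 ± 0.27 in PFA (0.730) and −0.17 ± 0.29 in OO + PFA (0.787). Among PigLiv livers the APOC3 means were 3980 CPM in 4 Control pigs and 4389 in 4 OO + PFA pigs. The 95% interval of the OO difference was −0.34 to 0.73. No change of APOC3 was thus detected at this spread, and a link of its upstream motif match to its level was not tested.

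The assembly pair APOB and MTTP moved together over the 23 livers and little with diet. APOB had 4068 ± 791 CPM in Control, 5234 ± 1298 in PFA, 4205 ± 1455 in OO and 3861 ± 587 in OO + PFA. MTTP had 240.3 ± 35.9, 294 ± 80.7, 286 ± 77.7 and 245 ± 28.8 CPM in the same order. Against Control, APOB differed by 0.05 ± 0.21 in OO (edgeR, adjusted p = 0.919), 0.36 ± 0.21 in PFA (0.536) and −0.08 ± 0.23 in OO + PFA (0.888), which turned to 0.015 with GC corrected. MTTP differed by 0.25 ± 0.18 (0.443), 0.29 ± 0.18 (0.561) and 0.03 ± 0.19 (0.951). For both, PFA was the diet with the highest mean and P-95 the highest liver (7139.6 CPM of APOB, 425 of MTTP). P-95 also had the lowest GC slope of the fitted livers (−0.474), and both members fell with the slope. The mean slope was −0.138 in PFA and −0.0794 in Control.

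APOM, the sphingosine 1-phosphate carrier, had its lowest mean on the combined diet but did not pass the test. It had 189 ± 44.9 CPM in Control, 169 ± 32.5 in PFA, 162 ± 44.1 in OO and 137.1 ± 19.0 in OO + PFA. All 5 OO + PFA livers were below the Control mean, and the log2 fold change was −0.46 ± 0.19 (edgeR, adjusted p = 0.139). Against Control it was −0.22 ± 0.18 in OO (0.492) and −0.16 ± 0.18 in PFA (0.758). Among PigLiv livers the APOM means were 163 CPM in 4 Control pigs and 135 in 4 OO + PFA pigs. Its correlation with the GC slope was −0.11 over all livers, −0.56 within PigLiv and 0.41 within PL.

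**Figure D3:**
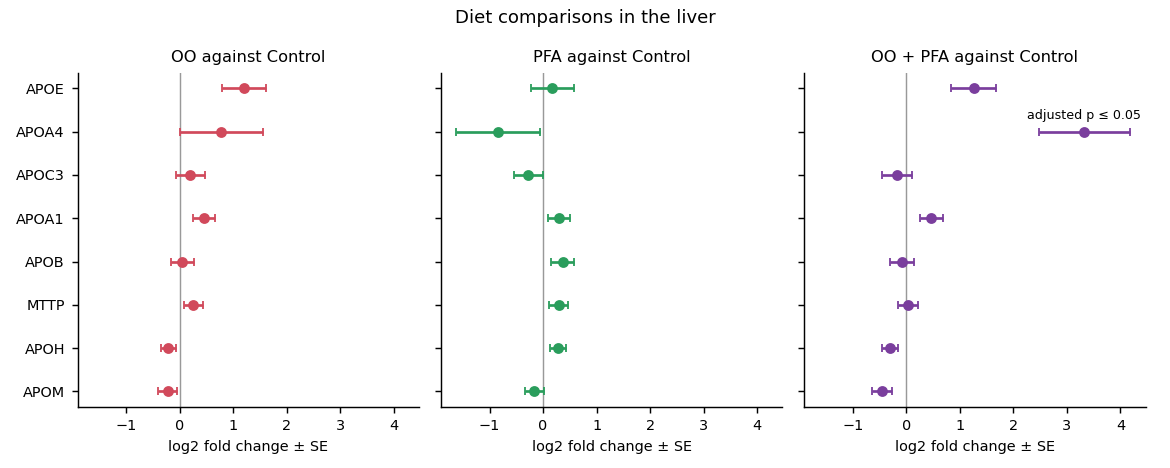
Log2 fold change against Control (point) with its standard error (bar) for the 8 tested members in the liver, in OO (left), PFA (middle) and OO + PFA (right). APOA4 in OO + PFA, at 3.32, is the one estimate that passed the threshold. It was 0.76 without OP-137.

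Counted over members, none passed with the additive on its own in the liver. For PFA against Control 0 of 8 members passed in edgeR and in DESeq2 and 0 had an unadjusted p under 0.05, beside 0%, 0.311% and 11% of all genes. For OO against Control 0 members passed in edgeR, 1 in DESeq2 and 2 before adjustment, beside 2.71%, 7.8% and 21.4%. OO + PFA against Control gave 1, 1 and 4 members, beside 5.08%, 9.91% and 22.6%. The edgeR call there was APOA4 and the DESeq2 call APOE, so no member was called by both. DESeq2 gave APOA4 no adjusted p in the liver. OO + PFA against OO, the test of the additive on the oxidized oil diet, gave 0, 0 and 1, beside 0%, 0.224% and 8.5%. OO + PFA against PFA gave 1, 1 and 3, beside 1.58%, 5.04% and 23.5%. Here too the calls differed, APOA4 in edgeR and APOH in DESeq2. The interaction of oil and additive gave 0, 0 and 1, beside 0%, 1.08% and 13.6%. The 1 member under 0.05 before adjustment was APOA4 in the interaction and in OO + PFA against OO. These comparisons share animals and are not independent. The median log2 fold change of the members was 0.22 in OO, 0.22 in PFA and −0.02 in OO + PFA against Control, beside 0.06, 0.03 and −0.01 over all genes.

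Correlations were taken over all 23 livers without a term for diet. The strongest among the 28 member pairs was that of APOB with MTTP, at r = 0.92 (Spearman 0.92, permutation adjusted p = 0.000187). Genes outside the members were as close, such as NDUFAF1 to MTTP (0.95) and LIN7C to APOB (0.94). The share of all gene pairs at this r was not tested. The r of APOB with MTTP was 0.90 without the 2 most extreme livers, 0.81 after GC correction, 0.90 within PigLiv and 0.96 within PL. In 13 pairs the adjusted p of r was at or under 0.05, 7 positive and 6 negative. APOC3 with APOE (r = 0.65, rho = 0.68, adjusted p = 0.00523 and 0.0042) kept 0.57 after GC correction and 0.61 without the 2 most extreme livers. APOA1 with APOE (0.80, rho = 0.78, 0.000187 and 0.0007) came to −0.03 after it and 0.74 without those livers. APOB with APOE (−0.61, rho = −0.68, 0.0107 and 0.0042) came to 0.06 and −0.59.

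For 5 other members, the genes most alike in liver pattern were again named as a description over 23 livers that share depth and base composition. APOB was closest to the unnamed gene ENSSSCG00000004983 (r = 0.95), LIN7C and SLC35A3 (both 0.94), and MTTP to NDUFAF1 (0.95), PTPN11 and COX15 (both 0.93). APOC3 was closest to NDUFA2, HIGD2A and AKR1A1 (all 0.93). APOA1 was closest to RPS7 (0.88), HSD11B1L and NOP53 (both 0.86), and APOM to CUEDC2 (0.79), ND5 (0.75) and RNASEH2A (0.72).

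The same 10 pigs gave both tissues, and all 8 members tested differed between liver and ileum (edgeR), beside 78% of all 14982 genes. Of these, 6 were higher in liver and 2 in ileum, beside 37.5% and 40.5%. Libraries were scaled together here, so levels differ from those above and the size of each fold depends on that scaling. Scaled within each tissue, APOA1 averaged 3902 CPM over the 23 fitted livers of all diets and 2010 over the 10 ilea. APOB averaged 4363 and 3061 CPM, and MTTP 267 and 739. APOE was 7679 CPM in liver and 18.7 in ileum (log2 fold change 8.74 ± 0.47), APOM 264 and 0.816 (8.33 ± 0.19), and APOC3 7016 and 66.4 (6.75 ± 0.44). APOA1 was 5255 and 1362 CPM (1.97 ± 0.22) and APOB 6632 and 2073 (1.67 ± 0.18). Each of these 5 was higher in liver in 10 of 10 pigs, with adjusted p from 2.79e-20 to 3.88e-08. Ileum titles had another form than liver titles. For each 100 counts on genes, reads outside genes had a median of 24.4 in ilea and 12.8 in livers. Tissue cannot be told apart from library preparation in this comparison.

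APOH was nearly undetected in the ileum. It was 7758 CPM in liver, and the 10 ilea held 3 counts of it in all, with 7 libraries at 0. Taken against 3 counts per ileum library, the lowest liver was at least 52756-fold higher.

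APOA4 and MTTP went the other way. APOA4 was 16.4 CPM in liver and 304 in ileum, lower in the liver of all 10 pigs (log2 fold change −4.22 ± 0.54, edgeR, adjusted p = 2.78e-07). MTTP was 380 ± 104 and 501 ± 101 CPM and was higher in liver in 1 of 10 pigs, P-95, with a log2 fold change of −0.40 ± 0.14 (adjusted p = 0.0101). After GC correction it was −0.10 (0.418), and that call was lost.

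**Figure D4:**
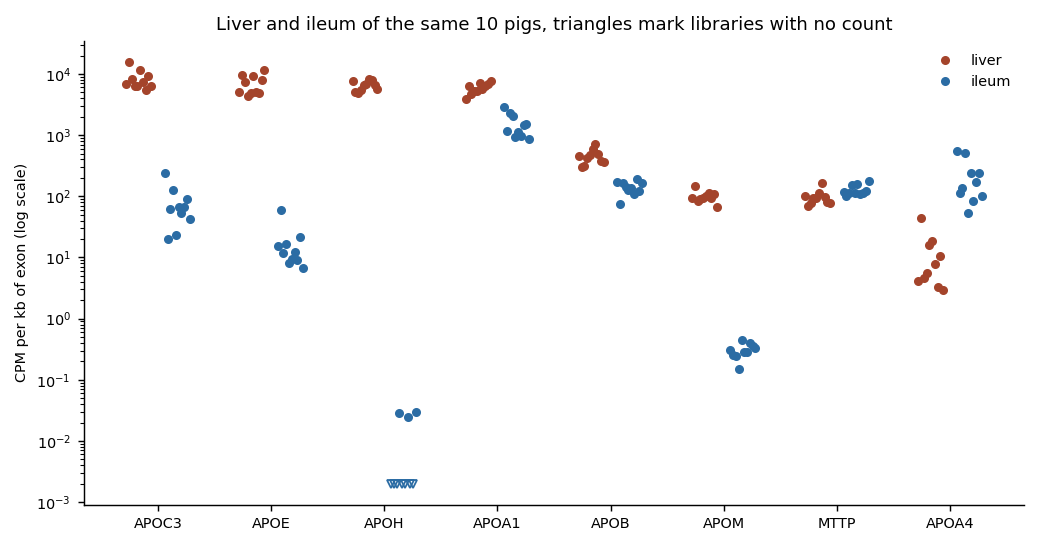
CPM per kilobase of exon on a log axis in the liver (red) and ileum (blue) of the same 10 pigs, 1 point per library, with triangles for libraries holding no count. APOC3 is 106-fold higher in the mean of livers than of ilea, APOE and APOM more so, APOA4 is higher in every ileum, and MTTP in 9 of the 10.

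Ordered per kilobase, the Control ileum gave another ranking than the Control liver. APOA1 led at 2758 ± 1216 CPM per kb (SD, n = 5), above the next member in all 5 pigs. APOA4 (402 ± 352), APOB (202 ± 58.2) and MTTP (176 ± 30.2) followed, with APOA4 above APOB and APOB above MTTP in 3 of 5 pigs, and APOC3 (140.3 ± 139) was below MTTP in 4 of 5. APOE had 32.5 ± 29.8 and APOM 0.414 ± 0.163 CPM per kb.

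The additive gave no member call in the ileum in edgeR or DESeq2. APOA1 was 3844, 1490, 3061, 2635 and 1258 CPM in the Control ilea and 1502, 1262, 1910, 2005 and 1129 in the PFA ilea. All 5 PFA values were under the Control mean and 3 Control pigs were above every PFA pig, but the groups overlapped. The log2 fold change of APOA1 was −0.65 ± 0.30 (edgeR, adjusted p = 0.991). APOA4 was 1122, 223, 275, 1051 and 112 CPM in Control and 490, 171, 346, 491 and 206 in PFA, which put C-71 and C-100 above all others and the rest together (−0.71 ± 0.59).

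Of the other ileal members, APOE differed by −0.89 ± 0.51, APOC3 by −0.57 ± 0.59, APOM by 0.25 ± 0.28, MTTP by 0.20 ± 0.17 and APOB by 0.08 ± 0.23 on the log2 scale, all with adjusted p of at least 0.991 (edgeR). With GC corrected APOB turned to −0.0082. The APOE estimate shrank to −0.14 without the Control ileum C-80, which had 93.5 CPM beside 13.1 to 27.1 in the other 4. No member passed in edgeR or DESeq2 and 1, APOA1, had an unadjusted p under 0.05, beside 0% called in edgeR, 0.028% in DESeq2 and 2.8% before adjustment. The log2 effect of the additive on APOA1 in liver minus that in ileum was 1.06 ± 0.36 (edgeR, adjusted p = 0.976). No member passed that test of the tissue difference in edgeR or DESeq2 and 1, again APOA1, was under 0.05 before adjustment, beside 0% in both tools and 4.93% of all genes.

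**Figure D5:**
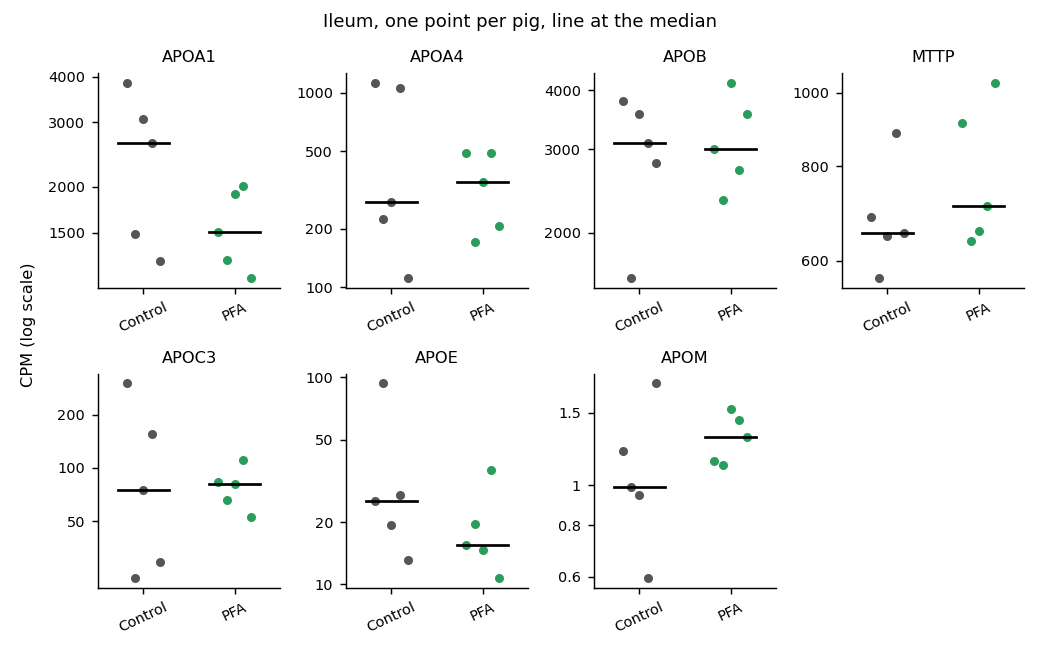
Level of the 7 members tested in the ileum, in CPM on a log axis, 1 point per pig and a line at the median (5 Control and 5 PFA pigs). The groups overlap for every member. APOA1 has its 3 highest values in Control pigs (2635 to 3844 CPM), and 1 Control pig has 93.5 CPM of APOE.

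Other genes of the pathway were counted by role across the liver diets. Values of genes outside the members, here and below, were not corrected for GC. All 5 fitted OO + PFA livers had GC slopes above 0 (0.0406 to 0.487). Of 7 other apolipoproteins and related lipoprotein proteins 0 passed in edgeR, 1 in DESeq2 and 2 before adjustment, beside 3.66%, 12.8% and 25.2% of all genes. Of 21 genes of particle assembly and secretion the counts were 0, 4 and 7. Of 12 lipases, transfer proteins and regulators 3 passed in edgeR, 7 in DESeq2 and 7 before adjustment. The 3 in edgeR were endothelial lipase LIPG, the lipoprotein-associated phospholipase PLA2G7 and the lipoprotein lipase inhibitor ANGPTL4. LIPG rose in OO + PFA against Control by 1.71 ± 0.29 (adjusted p = 0.00267), from 24.2 ± 6.00 to 78.9 ± 48.1 CPM. PLA2G7 rose in OO by 1.02 ± 0.21 (0.00990), while ANGPTL4 passed in no contrast against Control (OO 0.61 ± 0.25, adjusted p = 0.164). Of 17 receptors and efflux transporters 0 passed across diets in edgeR, 4 in DESeq2 and 6 before adjustment. In OO + PFA against Control edgeR called 1 of the 17, LRP5 (1.32 ± 0.36, 0.0353), beside 5.08% of all genes.

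Of 28 transcription factors known to act on these genes 4 passed across diets in edgeR, 8 in DESeq2 and 13 before adjustment. The shares of all genes were 3.66%, 12.8% and 25.2%. The 4 in edgeR were CREB3L3, the hepatic activator of APOA4 and other triglyceride genes, NR0B2, CEBPB and NR2F1. CREB3L3 rose by 0.99 ± 0.14 in OO (edgeR, adjusted p = 0.000156) and 0.67 ± 0.14 in OO + PFA (0.0166) against Control. Its CPM was 225 ± 31.5 in Control, 448 ± 68.8 in OO and 357 ± 77.1 in OO + PFA. NR0B2, a corepressor, rose by 2.15 ± 0.49 (0.0189) and CEBPB by 1.34 ± 0.28 (0.0121) in OO + PFA. OP-137 had 58.0 CPM of NR0B2, and the other OO + PFA livers 9.05 to 39.5. It had 459 CPM of CREB3L3 against 284 to 420 in them, and 51.5 of PPARA against 16.9 to 22.9. For CEBPB (80.7 CPM) and NR2F1 (26.9 CPM) OP-137 lay within their range. The part of these factors in its APOA4 level was not tested. NR2F1 had 19.1 ± 2.49 CPM in Control, 27.1 ± 5.18 in OO and 25.8 ± 4.36 in OO + PFA.

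Genes taken as targets of PPAR-alpha were set beside the members. The list holds fatty acid oxidation genes and others such as FGF21, a hormone of fasting, PLIN2, a lipid droplet coat protein, PDK4 and TXNIP. Of 23 tested, 16 passed across diets in edgeR, 16 in DESeq2 and 18 before adjustment, beside 3.66%, 12.8% and 25.2% of all genes. The smallest p-values were those of CPT1A, CPT2, ACADVL and CREB3L3. In OO 15 rose and 0 fell against Control, beside 1.37% of all genes called higher, with a median log2 fold change of 0.99. In OO + PFA 14 rose and 0 fell, beside 4.09%, with a median of 0.73, where the medians over all genes were 0.06 and −0.01. CREB3L3 is in this list and in that of transcription factors, and ANGPTL4 in this list and in that of lipases. CPT1A, the gate of fatty acids into mitochondria, rose by 1.60 ± 0.15 in OO (edgeR, adjusted p = 4.94e-07), from 73.4 ± 12.1 to 223 ± 40.7 CPM. The members' own medians in these contrasts were 0.22 and −0.02.

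Cells that also express members were followed by their markers. Summed macrophage markers, a cell type that makes APOE, were 567 to 1674 CPM in Control livers, 766 to 1761 in PFA, 1216 to 1979 in OO and 1010 to 2265 in OO + PFA. In OO against Control 0 of the 13 passed in edgeR, 0 in DESeq2 and 2 before adjustment, beside 2.71%, 7.8% and 21.4% of all genes. All 13 estimates were above 0, with a median log2 fold change of 0.32. In PFA against Control the counts were 0, 0 and 1, beside 0%, 0.311% and 11%. There 12 of 13 estimates were above 0, with a median of 0.33, so the direction was not particular to the oxidized oil diets. In OO + PFA against Control 0 passed in edgeR, 2 in DESeq2 and 3 before adjustment, beside 5.08%, 9.91% and 22.6%. Of these estimates 12 of 13 were above 0, with a median of 0.22. Across diets the counts were 0, 1 and 3, beside 3.66%, 12.8% and 25.2%. Their part in the APOE levels was not tested. Across the liver diets edgeR called 0 of 11 lymphocyte, 0 of 11 stromal and endothelial, 0 of 6 bile duct and 0 of 4 erythrocyte markers. DESeq2 called 1, 0, 0 and 0 of them, beside 12.8% of all genes. Before adjustment 2, 0, 2 and 0 were under 0.05, beside 25.2%. Of 11 hepatocyte markers edgeR called 3 across diets, beside 3.66% of all genes. In OO against Control SERPINA1 (−1.25 ± 0.27, adjusted p = 0.0150) and CYP2E1 (−0.62 ± 0.14, 0.0211) fell and 0 rose, beside 1.34% of all genes called lower, and the median over the 11 was −0.28 with 7 below 0. In OO + PFA against Control CYP2E1 fell (−0.58 ± 0.15, 0.0322) and the amino acid enzyme TAT rose (1.42 ± 0.25, 0.00309), with a median of −0.24. Of all genes 5.08% were called in this contrast, and 4.09% were called higher. The part of these markers in the member levels was not tested.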

How the data were processed

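The authors sequenced poly(A) RNA from livers and ilea as stranded, paired-read libraries and deposited whole-number read counts per Ensembl gene. The submitters' processing notes name STAR 2.6.1d, HTSeq, DESeq2 1.22.2 and the build Sscrofa11.1. Which annotation release and which strand setting the counting used is not given in the sources used here.

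Groups came from the labels, and 0 columns were left unmapped. OP-77 was left out as the liver that the study is taken to have excluded. From the deposited counts, weakly counted genes were removed by edgeR's filter, libraries were scaled by TMM, and edgeR 4.0.16 quasi-likelihood tests (limma 3.58.1, R 4.3.3) were fitted over all genes with Benjamini-Hochberg adjustment, a call being an adjusted p at or under 0.05. The 4 liver diets shared 1 fit of 23 livers. Levels are CPM after TMM scaling. All 10 members were described in every comparison, other lists by counts and by up to 4 genes of smallest p among those passing across diets, and likeness by the 3 highest correlations, which for APOH are not reported here. The members and lists were chosen with earlier results of these data known.

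Alternatives included DESeq2 1.42.0, other scalings, filters and pig sets, and a GC correction. RefSeq gave a GC value for 79.7% of genes tested in liver and 79.3% in ileum, under the 80% needed, so a GC check over all genes is void and corrected values are given for the 8 tested members, which all had one. The same 10 pigs gave both tissues. A pig's deviations from its group means correlated between tissues at r = −0.25 to 0.54, and best with its own other tissue in 3 of 10. P-values cover the spread between pigs of 1 pen, and floors of 3 counts cover counting error only. The tests were checked on simulated data. Gene positions and sequences came from RefSeq for Sscrofa11.1, read with pysam 0.24.0. Python 3.11.15, numpy 2.4.6, pandas 2.3.3 and scipy 1.17.1 served the correlations, with 100000 permutations.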

Additional observations from a re-analysis of the deposited data

Results flagged for a closer look

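In 46 groups of 4 to 10 pigs, 2 had 1 pig apart from the rest by Dixon's criterion, which chance meets in about 1 group in 20. The OO + PFA liver OP-137 had 675 CPM of APOA4, and the next liver of that diet 47.6. The Control ileum C-80 had 93.5 CPM of APOE, and the next Control ileum 27.1, while the highest PFA ileum had 35.8.

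The OO + PFA liver OP-77, outside the main tests, was above the highest Control liver for 5 members when all 24 livers were scaled together. It had 8783 CPM of APOA1 (highest Control 3905), 67.6 of APOA4 (41.9), 18721 of APOC3 (8967), 38899 of APOE (7251) and 282 of APOM (269). For APOB (1169.7 CPM), APOH (1638 CPM) and MTTP (83.1 CPM) it was below every other liver, the lowest of which had 2093, 3196 and 175. Its GC slope of 0.645 was above that of all 23 fitted livers, the highest of which was 0.487. The part of this lean in the member values of OP-77 was not tested.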

How the results depend on the processing

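Of 737 alternative values of the 71 log2 fold changes, 686 kept direction and side of the threshold, 13 came past it, 4 lost it and 34 turned direction. Of 1334 values of these fold changes from fits without 1 pig, 1275 kept both and 41 turned. The cause of these changes was not tested, except that fits with fewer pigs or genes hold less data. DESeq2 gave no adjusted p for APOA4 in the liver.

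Members called across diets (1) were 2 with DESeq2, its size factors, upper quartile scaling or all 24 livers, 0 without OP-137 with GC corrected, and 0 to 3 on leaving out 1 pig (0 without OP-137, 3 without OO-74 or OO-97). OO against Control (0) gave 1 with DESeq2 and 0 to 1 without 1 pig (1 without OO-74 or OO-97). OO + PFA against Control (1) gave 2 with all 24 livers, 0 without OP-137 with GC corrected, and 0 to 2 without 1 pig (2 without OO-74, OO-97 or OO-130). OO + PFA against PFA (1) gave 2 with DESeq2's size factors, upper quartile scaling, at least 10 counts in every library or scaling without members and abundant genes, 3 with all 24 livers or only the 2 diets, 0 without OP-137 with GC corrected, and 0 to 2 without 1 pig. In the last case the 0 came without OP-137.

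Turned log2 fold changes were as follows. With GC corrected, APOA1 was −0.24, −0.29 and −0.51 for OO + PFA against Control, OO and PFA (−0.24, −0.29 and −0.50 also without OP-137; −0.23, −0.26 and −0.48 with a term for the form of the title). APOE against OO was −0.22, −0.22 and −0.14 in the same settings, and APOC3 against PFA −0.20, −0.28 and −0.0054. APOB in OO + PFA against Control was 0.015 with GC and 0.037 with GC and form. With GC and form, APOB was −0.0088 for OO against Control and 0.046 for OO + PFA against OO, APOE −0.010 for PFA against Control, and the APOM interaction 0.13. Without OP-137 and with GC corrected, APOA4 against OO was −0.19. The ileal APOB was −0.0082 with GC. A term for the form alone gave −0.0036 for APOB in OO and interactions of 0.11 for APOC3 and 0.053 for APOM. All 24 livers gave APOC3 0.42 against Control and 0.23 against OO, MTTP −0.14 against Control, and interactions of 0.51 (APOC3), 0.36 (APOE) and 0.16 (APOM). Upper quartile scaling gave MTTP −0.0066 in OO + PFA against Control.

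Ranges without 1 pig that crossed 0 were, in OO against Control, APOB −0.10 to 0.18; in PFA against Control, APOE −0.0073 to 0.31; in OO + PFA against Control, APOB −0.15 to 0.0092, APOC3 −0.26 to 0.055 and MTTP −0.037 to 0.10. Against OO they were APOA1 −0.096 to 0.17, APOA4 −0.016 to 2.84, APOB −0.26 to 0.025 and APOE −0.14 to 0.49. Interactions were APOC3 −0.32 to 0.084, APOE −0.31 to 0.32 and APOM −0.21 to 0.049. In the ileum they were APOB −0.072 to 0.19 and APOC3 −0.83 to 0.15. Tissue differences of the additive were APOA4 −0.72 to 1.11, APOC3 −0.33 to 1.06, APOH −1.63 to 0.14 and MTTP −0.17 to 0.30. With the pig number as a replicate block, the tissue comparison again called 8 members, and APOC3's tissue difference of the additive came to −0.044. The block changed no call of a member. The settings with GC corrected and OP-137 left out or the title form added were chosen after seeing the data.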

Other observations

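Related lipoprotein proteins outside the 10 members also differed by tissue in the same 10 pigs, where tissue cannot be told apart from library preparation. Of 8 tested, 7 passed (edgeR), 4 higher in liver and 3 in ileum, beside 78% of all genes. Clusterin (CLU), a lipoprotein-borne chaperone, was higher in liver by 6.43 on the log2 scale and APOF by 1.75. The log2 fold change of liver against ileum was −7.75 for APOBEC1, which edits the APOB messenger RNA, and −3.13 for APOD.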
